A study of Mus musculus with 6 samples.

Results

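The 44 genes described here encode the proteins that carry glucose into the cell, the enzymes of glycolysis from hexokinase to lactate dehydrogenase, the enzymes and kinases that set the fate of pyruvate, and enzymes of glycogen turnover, glycerol phosphate and the pentose phosphate pathway. They were chosen by name as members of these pathways, and probes were found through their transcript accessions, which were matched to current gene symbols. All 44 had a probe well above background on all 6 arrays, out of 19792 tested genes.

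RNA came from trunks of mouse embryos at embryonic day 9.5, cut from the level of the otic vesicle down to somite 15 together with the forelimbs. The Arid3b-null group had 3 samples and the wild-type group had 3 samples, each pooled from 4 embryos, so that 24 embryos were used. Arid3b encodes a transcription factor with an AT-rich DNA-binding domain. The labels used here do not state the structure of the null allele, the strain or the somite counts of the embryos. The comparison addresses which transcripts of the trunk differ when Arid3b is missing.

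Each sample was hybridised to a one-colour Agilent array, and each of the 3 slides carried 1 Arid3b-null and 1 wild-type array with the same replicate number. A level is the log2 signal relative to the 75th percentile of the array (611 to 844 intensity units), so a gene at 0 was as bright as that percentile and a step of 1 is a doubling of signal. Levels compare samples for the same probe and not different genes. The brightest Arid3b probe had levels of 0.54, 0.65 and 0.46 in Arid3b-null trunks and 2.18, 2.57 and 1.97 in wild-type trunks, a difference of -1.69 ± 0.17 on the log2 scale (SE, limma adjusted p = 0.00154). A further pair of Arid3b probes, each well above background on only 2 of the Arid3b-null arrays, changed by -1.90 ± 0.18 and -3.23 ± 0.20 (log2, SE). The labels do not say where the probes sit with respect to the deletion. Over all tested genes 13.6% rose and 12.9% fell, which is the background for every count of marker and stress genes here and below. Of 9 tested trunk and forelimb markers 0 rose and 2, Pax1 and Hoxa5, fell. Their mean level was 0.75 to 1.03 in Arid3b-null and 1.03 to 1.15 in wild-type trunks. Of 10 cardiac muscle markers and 3 tested forebrain markers 0 passed in either direction, and Six3 was not well above background. With slide and replicate number as a block, the cardiac marker Myl2 (log2 change -0.67, limma adjusted p = 0.0367) and the forebrain marker Hesx1 (-1.32, limma adjusted p = 0.0320) passed as falls. Surface epithelium markers had a mean level of 0.94 to 1.16 in Arid3b-null and 0.20 to 0.58 in wild-type trunks, with 5 of 10 higher, among them Krt19 (4.96-fold). The 10 immediate early and handling stress genes with a probe averaged -1.95 to -1.71 in Arid3b-null and -2.92 to -2.51 in wild-type trunks. Of the 9 tested genes 5 were higher, among them Hspa1a (6.85-fold). Among the marker lists used here and below, the calls of Hoxa5, Apoa2, Trf, Tnnc2, Slc4a1 and Krt18 were lost without at least 1 array (limma adjusted p = 0.0508 to 0.128). The part of these cell types and of handling in the changes below was not tested.

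Glycolysis splits glucose into pyruvate and yields ATP without oxygen. Glucose enters through GLUT transporters, is trapped by hexokinase, committed by phosphofructokinase and passed through aldolase, enolase and pyruvate kinase. Pyruvate then enters mitochondria through pyruvate dehydrogenase, which pyruvate dehydrogenase kinases switch off, or is turned into lactate and exported by monocarboxylate transporters. Most steps have several isoenzymes encoded by separate genes with different tissue patterns, and glycogen stores glucose units for later use. Many of these genes are known targets of hypoxia-inducible factors, which bind DNA at a short core called the hypoxia response element.

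Transcripts of most steps from glucose uptake to lactate export were higher in Arid3b-null trunks. Of the 3 pentose phosphate and 2 glycerol phosphate genes 0 rose, too few genes to set this apart from the share over all genes. Of the 44 genes 27 rose, 3 fell and 14 did not pass the test. In the same fit 13.6% of all 19792 genes rose and 12.9% fell, so that the share called was 26.5%. Rises of at least 2-fold were seen in 18 of the 44 genes, against a background of 3.70% of all genes, and a fall of that size in 1 gene, Gpd1, against 2.85%. The median log2 change was 0.61 over the 44 genes and -0.04 over all genes. Within the 3 slides the median of the 44 genes was 0.73, 0.60 and 0.74, and that of all genes was 0.03, -0.03 and -0.10. The groups were fully separated for 34 of the 44 genes, against 46.2% of all genes. All 3 Arid3b-null arrays lay above all wild-type arrays for 29 of the 44 genes (23.0% of all genes), and below for 5 (23.1% of all genes).

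In a whole trunk, fewer cells of a type and less RNA per cell cannot be told apart, and this holds for every value below. Among the 3 wild-type arrays, replicate 2 had the highest level of its group for 34 of the 44 genes, at a median of 0.12 above the group mean, against 0.00 over all genes. Without wild type replicate 2, 26 genes rose, 1 fell and the median log2 change was 0.66. Normexp correction with the local background of each spot gave 0 calls among the 44 genes, of which 25 were higher and 2 lower at an unadjusted p under 0.05, and 2 calls among all genes. Leaving out the 34 spots with a background over 2 times the array median, an alternative added after seeing the data, gave 27 rises and 4 falls in that setting.

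**Figure D1:**
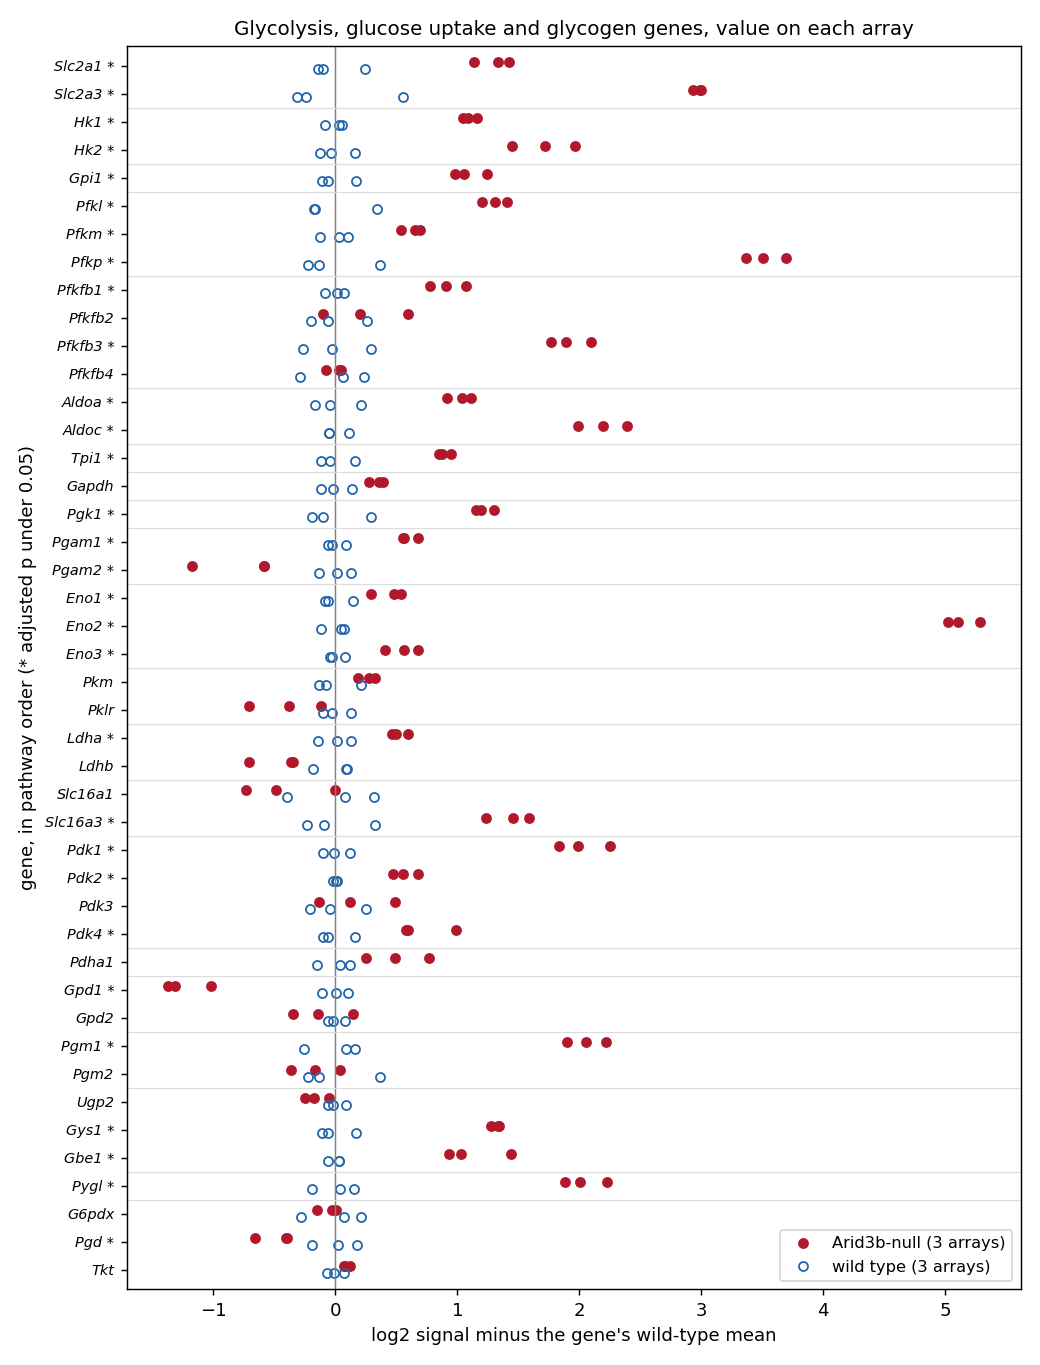
Level of each of the 44 genes on each array, drawn as log2 signal minus the wild-type mean of that gene (x axis), with genes in pathway order down the page. Filled points are the 3 Arid3b-null arrays and open points the 3 wild-type arrays, and an asterisk marks an adjusted p under 0.05. Eno2, Pfkp and Slc2a3 lie farthest to the right, with log2 changes of 5.14, 3.52 and 2.97, and Gpd1 farthest to the left at -1.24.

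Both glucose transporter genes rose. Slc2a1, which encodes the widely expressed GLUT1, had levels of 5.54, 5.62 and 5.34 in Arid3b-null trunks and 4.05, 4.44 and 4.10 in wild-type trunks. Its log2 change was 1.30 ± 0.15 (SE), 2.46-fold (limma adjusted p = 0.00225). Slc2a3 encodes GLUT3, a high-affinity transporter known from neurons and the early embryo, and had levels of 5.64, 5.70 and 5.69 in Arid3b-null trunks and 2.39, 3.26 and 2.46 in wild-type trunks. The 3 Arid3b-null arrays lay within 0.07 of each other, while wild type replicate 2 stood above the other wild-type arrays. The log2 change was 2.97 ± 0.23 (SE), 7.86-fold (limma adjusted p = 0.000725), and the differences on the 3 slides were 3.25, 2.45 and 3.23.

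Hexokinase, which phosphorylates glucose and holds it in the cell, rose in both measured forms. Hk1, the form found in most tissues, had levels of 3.29, 3.40 and 3.33 in Arid3b-null trunks and 2.27, 2.30 and 2.16 in wild-type trunks, a 2.14-fold rise (limma adjusted p = 0.00115). Hk2, the form that varies with insulin and oxygen supply in adult tissues, had levels of 3.48, 3.72 and 3.20 in Arid3b-null trunks and 1.63, 1.72 and 1.92 in wild-type trunks, a 3.27-fold rise (limma adjusted p = 0.00127). For either gene all Arid3b-null arrays exceeded all wild-type arrays. Gpi1, the isomerase that follows, had levels of 7.31, 7.50 and 7.24 in Arid3b-null trunks and 6.20, 6.43 and 6.15 in wild-type trunks and rose 2.13-fold (limma adjusted p = 0.00241).

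All 3 phosphofructokinase subunit genes rose, by 1.55-fold to 11.5-fold. Pfkp, the platelet-type subunit, had levels of 0.77, 1.10 and 0.90 in Arid3b-null trunks and -2.74, -2.24 and -2.83 in wild-type trunks. Its log2 change was 3.52 ± 0.18 (SE), 11.5-fold (limma adjusted p = 0.0003), and every Arid3b-null array exceeded every wild-type array by more than 3 log2 units. Pfkl, the liver-type subunit, rose 2.47-fold, with levels of 4.36, 4.47 and 4.57 in Arid3b-null trunks and 3.00, 3.50 and 2.98 in wild-type trunks (limma adjusted p = 0.00322). Pfkm, the muscle-type subunit, rose 1.55-fold, with levels of 2.42, 2.57 and 2.53 in Arid3b-null trunks and 1.91, 1.98 and 1.75 in wild-type trunks (limma adjusted p = 0.00918). A further Pfkp probe for the same transcript rose 1.36-fold, and the mean of both probes rose 3.95-fold.

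The Pfkfb genes encode enzymes that make and break a regulatory fructose bisphosphate, which activates phosphofructokinase and is not the intermediate that aldolase cleaves. Pfkfb3, the form with the strongest kinase activity, had levels of 2.79, 3.00 and 2.67 in Arid3b-null trunks and 0.64, 1.19 and 0.87 in wild-type trunks, a 3.78-fold rise (limma adjusted p = 0.00107). Pfkfb1, known as the liver form, rose 1.89-fold, with levels of 0.14, 0.43 and 0.27 in Arid3b-null trunks and -0.62, -0.56 and -0.72 in wild-type trunks (limma adjusted p = 0.00322). Pfkfb2 and Pfkfb4 did not pass the test, and their arrays overlapped between the groups. Pfkfb4 had levels of -0.38, -0.27 and -0.26 in Arid3b-null trunks and -0.24, -0.07 and -0.59 in wild-type trunks, with a mean difference of -0.00076 ± 0.15 on the log2 scale (SE, limma adjusted p = 0.998). For Pfkfb2 the log2 change was 0.23 ± 0.21 (SE), with a limma adjusted p of 0.453.

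Aldolase cleaves fructose bisphosphate into the triose phosphates. Aldoc, the form named for its abundance in brain, had levels of 2.40, 2.61 and 2.20 in Arid3b-null trunks and 0.16, 0.32 and 0.16 in wild-type trunks, a 4.57-fold rise (limma adjusted p = 0.000391). Aldoa, the form of muscle and most embryonic tissue, had levels of 8.97, 8.90 and 8.77 in Arid3b-null trunks and 7.82, 8.07 and 7.69 in wild-type trunks and rose 2.03-fold (limma adjusted p = 0.00334). The next enzyme, Tpi1, interconverts the triose phosphates and rose 1.85-fold, with levels of 7.08, 6.98 and 7.0 in Arid3b-null trunks and 6.08, 6.29 and 6.02 in wild-type trunks (limma adjusted p = 0.00318). Pgk1, the kinase of the first ATP-forming step, had levels of 7.66, 7.69 and 7.80 in Arid3b-null trunks and 6.40, 6.79 and 6.31 in wild-type trunks, a 2.32-fold rise (limma adjusted p = 0.00284).

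Gapdh, the dehydrogenase between these steps and a common reference transcript, had levels of 8.89, 8.81 and 8.92 in Arid3b-null trunks and 8.41, 8.51 and 8.66 in wild-type trunks on its brightest probe. The groups did not overlap, but the log2 change of 0.34 ± 0.11 (SE) did not pass (limma adjusted p = 0.0628). The call passed for the mean of the 7 Gapdh probes (limma adjusted p = 0.0157) and under normexp with the median background of each array (0.0467). Gapdh, like Ldha and Pgam1, has near-identical processed copies in the genome, so how far such probes read other transcripts is uncertain.

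Pgam1, the general phosphoglycerate mutase, and Pgam2, its muscle form, moved in opposite directions. Pgam1 had levels of 7.17, 7.05 and 7.06 in Arid3b-null trunks and 6.44, 6.58 and 6.47 in wild-type trunks and rose 1.51-fold (limma adjusted p = 0.00812). Pgam2 had levels of -1.48, -0.89 and -0.89 in Arid3b-null trunks and -0.44, -0.18 and -0.29 in wild-type trunks and fell 1.72-fold (limma adjusted p = 0.0243). The fall did not pass without wild type replicate 1, 2 or 3 (adjusted p = 0.0553, 0.0759 and 0.0667) or with no filter on dim probes (0.0849). Beside it, 3 of 4 tested skeletal muscle markers fell, among them Myog (1.93-fold). The mean level of all 8 listed muscle markers was -4.17 to -4.04 in Arid3b-null and -3.87 to -3.71 in wild-type trunks. That mean includes Myod1, Myf5, Ckm and Mylpf, which were not well above background on any array. The part of muscle cells in the Pgam2 fall was not tested.

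Enolase held the largest change of the 44 genes, which was also the largest rise among all 19792 tested genes. Eno2, known as neuron-specific enolase, had levels of 2.45, 2.63 and 2.36 in Arid3b-null trunks and -2.78, -2.59 and -2.61 in wild-type trunks. The log2 change was 5.14 ± 0.12 (SE), 35.2-fold (limma adjusted p = 2.35e-05), and the differences on the 3 slides were 5.22, 5.21 and 4.98. Under normexp with the median background of each array the fold was 21.6. In the same samples 9 of 10 markers of postmitotic neurons fell, among them Stmn2 (8.01-fold) and Elavl3 (6.97-fold), and their mean level was -2.04 to -1.79 in Arid3b-null and 0.07 to 0.43 in wild-type trunks. Over all genes 12.9% fell. Eno2 moved opposite to these 9 neuronal markers, and the part of neurons in its change was not tested.

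The other enolase genes changed less. Eno3, the muscle enolase, had levels of 4.36, 4.47 and 4.20 in Arid3b-null trunks and 3.76, 3.87 and 3.75 in wild-type trunks and rose 1.46-fold (limma adjusted p = 0.0150), a call that did not pass without wild type replicate 1 (0.0611) or with no filter on dim probes (0.0683). Eno1, the widespread form, had levels of 8.26, 8.01 and 8.20 in Arid3b-null trunks and 7.66, 7.86 and 7.64 in wild-type trunks and rose 1.35-fold (limma adjusted p = 0.0397). Its adjusted p was 0.0800 with slide, which is also the replicate number, as a block, 0.233 after quantile normalization, 0.0794 with median scaling and 0.135 with no filter on dim probes. The Eno1 call was kept without Arid3b-null replicate 2 and lost without each other array, with adjusted p-values of 0.110 and 0.106 without Arid3b-null replicates 1 and 3 and 0.128, 0.0531 and 0.104 without wild type replicates 1, 2 and 3.

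Pyruvate kinase makes pyruvate, and neither of its genes passed the test. Pkm, the form of embryonic and most adult tissues, had levels of 7.15, 7.29 and 7.24 in Arid3b-null trunks and 6.89, 7.17 and 6.83 in wild-type trunks (log2 change 0.26 ± 0.13 (SE), limma adjusted p = 0.173). Pklr, the liver and red cell form, had levels of -4.67, -5.0 and -4.41 in Arid3b-null trunks and -4.32, -4.17 and -4.40 in wild-type trunks (log2 change -0.40 ± 0.17 (SE), limma adjusted p = 0.126). Its 3 Arid3b-null arrays lay below the wild-type arrays, while those of Pkm overlapped.

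Of the lactate dehydrogenase genes 1 rose and the other did not pass. Ldha, whose subunit favours lactate formation, had levels of 8.58, 8.48 and 8.45 in Arid3b-null trunks and 7.84, 8.11 and 8.0 in wild-type trunks and rose 1.43-fold (limma adjusted p = 0.0185). That call did not pass without Arid3b-null replicate 1 (0.0591), Arid3b-null replicate 2 (0.0502) or wild type replicate 1 (0.0729), nor after quantile normalization (0.0633), in the deposited value table (0.0872) or with no filter on dim probes (0.0795). Ldhb, the heart-type subunit, had levels of 3.18, 3.53 and 3.54 in Arid3b-null trunks and 3.99, 3.98 and 3.71 in wild-type trunks, lower on all 3 Arid3b-null arrays, with a log2 change of -0.47 ± 0.15 (SE) that did not pass (limma adjusted p = 0.0563). Under normexp with the median background of each array Ldhb passed as a fall (0.0308).

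Slc16a3 encodes MCT4, the transporter that exports lactate from glycolytic cells, and had levels of 6.87, 6.73 and 6.51 in Arid3b-null trunks and 5.05, 5.61 and 5.18 in wild-type trunks. It rose 2.69-fold (limma adjusted p = 0.00299). Slc16a1, the related transporter MCT1, had levels of -3.74, -4.23 and -4.48 in Arid3b-null trunks and -3.42, -4.14 and -3.66 in wild-type trunks, with overlapping groups and a limma adjusted p of 0.269. Bsg, which encodes the basigin chaperone of both transporters and is not among the 44 genes, rose 2.32-fold (limma adjusted p = 0.00451).

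Of the 4 kinases that switch off pyruvate dehydrogenase, 3 rose. Pdk1 had levels of 1.19, 1.46 and 1.04 in Arid3b-null trunks and -0.81, -0.68 and -0.89 in wild-type trunks, a 4.07-fold rise (limma adjusted p = 0.000544). Pdk2 had levels of -1.39, -1.30 and -1.18 in Arid3b-null trunks and -1.84, -1.85 and -1.88 in wild-type trunks and rose 1.48-fold (limma adjusted p = 0.00988), with 0.0528 when no filter on dim probes was set. Pdk4, the kinase induced by fasting in adult tissue, had levels of -4.17, -4.58 and -4.56 in Arid3b-null trunks and -5.26, -4.99 and -5.22 in wild-type trunks and rose 1.65-fold (limma adjusted p = 0.0168). It did not pass under normexp with the median background of each array (0.229) or under normexp with local background and high-background spots left out (1.08-fold, adjusted p = 0.615). It also did not pass with no filter on dim probes (0.0671), without wild type replicate 1 (0.0636) or without wild type replicate 3 (0.0524).

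Pdk3 had levels of 0.94, 0.69 and 1.32 in Arid3b-null trunks and 0.62, 1.08 and 0.78 in wild-type trunks, which overlapped (limma adjusted p = 0.595). Pdha1, the catalytic alpha subunit of pyruvate dehydrogenase itself, had levels of 0.68, 0.45 and 0.96 in Arid3b-null trunks and 0.23, 0.31 and 0.05 in wild-type trunks and did not pass (limma adjusted p = 0.0586), but passed without Arid3b-null replicate 2 (0.0436). All 3 of its Arid3b-null arrays lay above the wild-type arrays.

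The glycerol phosphate dehydrogenases shuttle reducing equivalents and feed lipid synthesis. Gpd1, the cytosolic enzyme, had levels of -2.79, -3.15 and -3.09 in Arid3b-null trunks and -1.67, -1.77 and -1.88 in wild-type trunks, a 2.36-fold fall (limma adjusted p = 0.00196) and the deepest fall among the 44 genes. Gpd2, the mitochondrial enzyme, had levels of -0.65, -0.86 and -0.37 in Arid3b-null trunks and -0.53, -0.58 and -0.43 in wild-type trunks, which overlapped between the groups (limma adjusted p = 0.607).

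Genes that lead glucose into glycogen and out of it rose at most measured steps. Pgm1, the phosphoglucomutase that links glycolysis to glycogen, had levels of 5.0, 5.17 and 4.84 in Arid3b-null trunks and 3.04, 3.11 and 2.69 in wild-type trunks, a 4.16-fold rise (limma adjusted p = 0.000609). It was identified by its accession, as all these genes were, and its older name was Pgm2. The gene now called Pgm2, whose product acts on pentose phosphates, had levels of -3.26, -3.45 and -3.05 in Arid3b-null trunks and -3.23, -3.32 and -2.73 in wild-type trunks and did not pass (limma adjusted p = 0.567).

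Ugp2, which makes the UDP-glucose used for glycogen, had levels of 0.82, 0.94 and 0.75 in Arid3b-null trunks and 0.97, 1.08 and 0.93 in wild-type trunks and did not pass (limma adjusted p = 0.313). Gys1, the glycogen synthase of muscle and most tissues, had levels of 2.89, 2.95 and 2.95 in Arid3b-null trunks and 1.5, 1.78 and 1.55 in wild-type trunks, a 2.49-fold rise (limma adjusted p = 0.000993). Gbe1, the branching enzyme, had levels of 0.99, 1.5 and 1.09 in Arid3b-null trunks and 0.09, 0.00 and 0.09 in wild-type trunks and rose 2.20-fold (limma adjusted p = 0.00380). In both the groups were separated on all arrays.

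Pygl, the liver-type phosphorylase that releases glucose units from glycogen, had levels of 2.16, 2.51 and 2.29 in Arid3b-null trunks and 0.09, 0.43 and 0.32 in wild-type trunks, a 4.11-fold rise (limma adjusted p = 0.000558). In the same samples 6 of 7 tested liver markers fell, among them Hnf4a (2.37-fold). The mean level of all 8 listed liver markers was -3.04 to -2.23 in Arid3b-null and -1.52 to -1.13 in wild-type trunks. Over all genes 12.9% fell. Pygl moved opposite to the liver markers that fell, and the part of liver cells in its change was not tested.

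The 3 pentose phosphate genes showed 0 rises, too few genes to set this apart from the 13.6% of all genes that rose. G6pdx, the entry enzyme, had levels of 2.80, 2.65 and 2.77 in Arid3b-null trunks and 2.87, 3.01 and 2.52 in wild-type trunks (limma adjusted p = 0.798). Tkt, the transketolase that returns sugars to glycolysis, had levels of 5.97, 6.01 and 5.96 in Arid3b-null trunks and 5.82, 5.96 and 5.88 in wild-type trunks (limma adjusted p = 0.537). Pgd, the dehydrogenase that follows G6pdx, had levels of 2.53, 2.27 and 2.54 in Arid3b-null trunks and 2.95, 3.11 and 2.74 in wild-type trunks and fell 1.4-fold (limma adjusted p = 0.0439).

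The Pgd call rested on narrow margins. Its adjusted p was 0.0827 with slide and replicate number as a block and 0.139 with no filter on dim probes, and it was 0.0722 after quantile normalization, 0.0826 with median scaling and 0.0860 in the deposited value table. Without Arid3b-null replicates 1, 2 and 3 it was 0.0783, 0.116 and 0.0814, and without wild type replicates 1 and 2 it was 0.123 and 0.121.

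Isoenzymes of the same step differed in the size of their change on these arrays, in a design too small for the test of each pair to pass. For each pair of genes within a step, the difference of their levels was taken on each array and compared between Arid3b-null and wild type. In 23 of 27 pairs all 3 Arid3b-null values lay above or below all 3 wild-type values. Of single genes 46.2% were so separated, which is not a background for pairs. The share over other gene pairs was not computed, and many pairs share a gene, so the count of pairs is a description only. In 16 pairs the changes differed by at least 1 log2 unit. With 3 arrays against 3 the two-sided exact permutation test cannot go below p = 0.10, which was the value for these 23 pairs, and 0 of 27 passed after adjustment (smallest adjusted p = 0.117).

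Within enolase the log2 change of Eno2 exceeded that of Eno1 by 4.70 ± 0.16 (SE) and that of Eno3 by 4.59 ± 0.06. Pfkp exceeded Pfkm by 2.89 ± 0.14 and Pfkl by 2.22 ± 0.09 on its brightest probe. The other Pfkp probe changed by 0.44, less than Pfkm at 0.63 and Pfkl at 1.31, so the order of these subunits turned with the probe. Pgm1 exceeded Pgm2 by 2.22 ± 0.38, Pfkfb3 exceeded Pfkfb4 by 1.92 ± 0.20, and Slc16a3 exceeded Slc16a1 by 1.84 ± 0.40. In glucose uptake Slc2a3 exceeded Slc2a1 by 1.68 ± 0.18, and in aldolase Aldoc exceeded Aldoa by 1.17 ± 0.11. In phosphoglycerate mutase Pgam1 exceeded Pgam2 by 1.38 ± 0.24, and in lactate dehydrogenase Ldha exceeded Ldhb by 0.99 ± 0.20. The 4 pairs with overlapping values were Eno3 and Eno1 (exact permutation p = 0.80), Pfkfb2 and Pfkfb4 (exact permutation p = 0.50), Pdk2 and Pdk3 (exact permutation p = 0.20), and Pdk4 and Pdk2 (exact permutation p = 0.60).

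**Figure D2:**
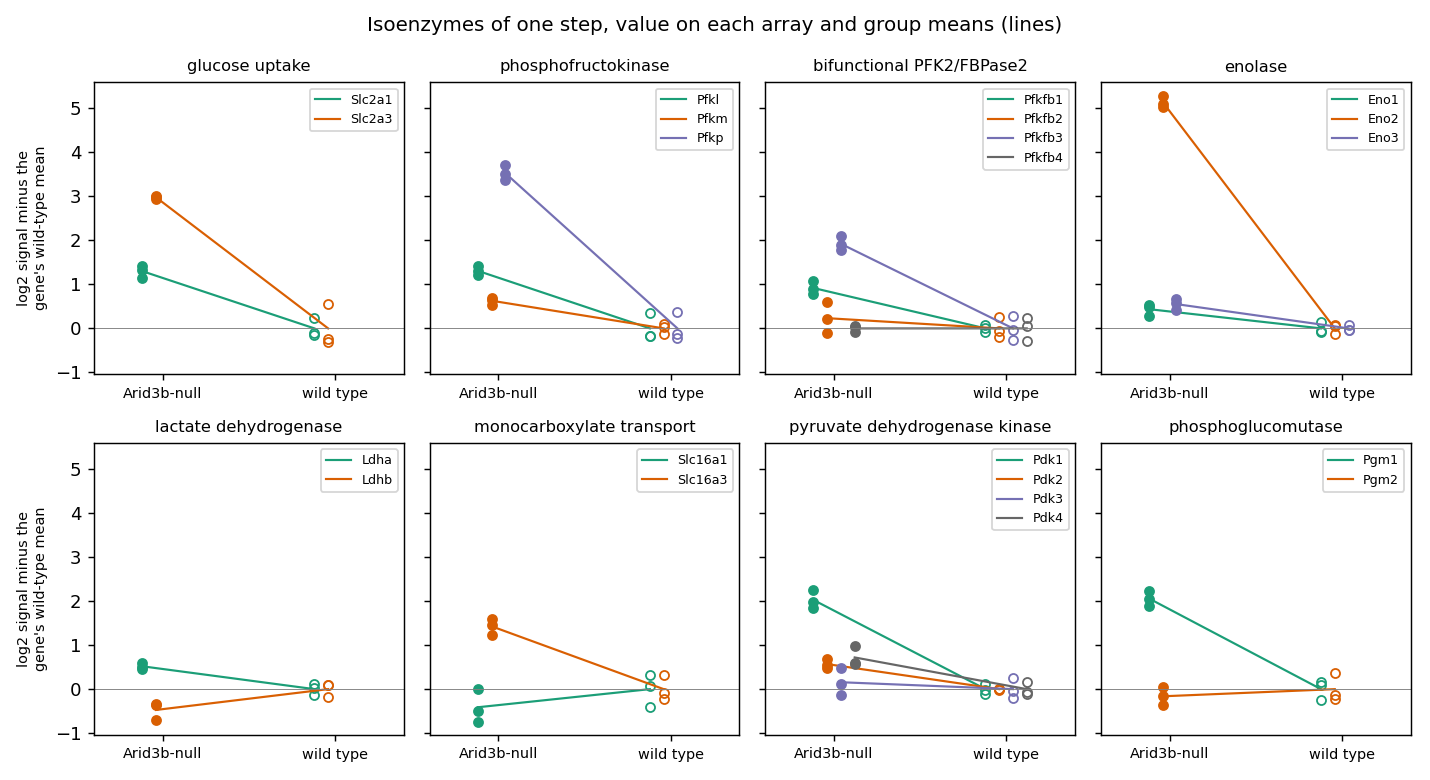
Isoenzymes of 8 steps, drawn as log2 signal minus the wild-type mean of the gene (y axis) in Arid3b-null (filled points) and wild type (open points), 3 arrays each. Lines join the group means. In the enolase panel Eno2 stands 5.14 log2 units up while Eno1 and Eno3 stand at 0.44 and 0.55, and in the lactate dehydrogenase panel Ldha and Ldhb lie on opposite sides of 0 in Arid3b-null.

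Probes of the same gene mostly gave like changes. Of the 44 genes 10 had more than 1 tested probe. The 3 probes of Gpi1 changed by 1.07 to 1.12 on the log2 scale, the pair for Pfkfb3 by 1.91 to 1.92, and the pair for Slc16a3 by 1.39 to 1.43. Hk1 probes ranged from 1.10 to 1.19, Tpi1 probes from 0.89 to 1.19, and Gys1 probes from 1.32 to 1.75. Of the 7 Gapdh probes 6 rose, with log2 changes of 0.34 to 0.77, and of the 3 Ldha probes 2 rose, with 0.52 to 0.71. The widest gap was in Pfkp, where both probes carry the same accession and changed by 0.44 and 3.52. The dimmer Pfkp probe was also well above background on all 6 arrays.

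**Figure D3:**
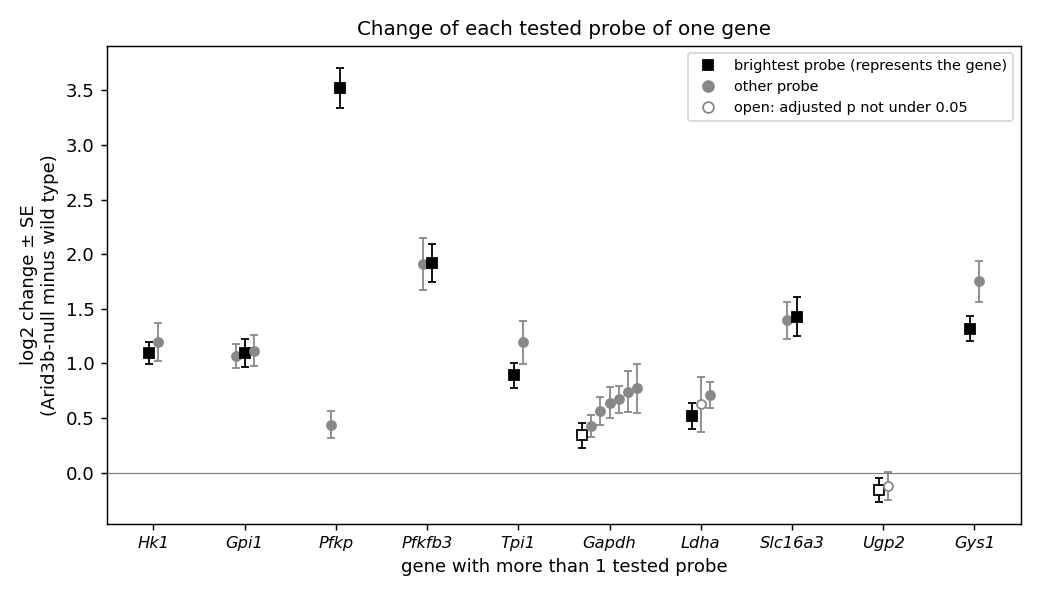
Log2 change (Arid3b-null minus wild type, y axis) with its SE for every tested probe of the 10 genes with more than 1 probe (x axis). Squares are the brightest probe, which represents the gene, circles are other probes, and open symbols did not pass. The Pfkp probes stand apart at 0.44 and 3.52, while those of Gpi1 lie between 1.07 and 1.12.

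Genes of the surrounding carbohydrate pathways rose and fell in like numbers. Among 85 tested genes of 8 such lists 17 rose and 15 fell, with a median log2 change of -0.05, against -0.04 over all genes. Of all genes 13.6% rose and 12.9% fell, which is also the background for the counts of each list below. Glycogen metabolism gave 6 rises and 0 falls among 19 tested genes. Ppp1r3c, which targets protein phosphatase to glycogen, rose 9.21-fold (limma adjusted p = 0.000197), and Ppp1r3g, another such targeting subunit, rose 3.37-fold. Stbd1, a glycogen-binding protein, rose 2.29-fold and Gaa, the lysosomal enzyme that degrades glycogen, 2.05-fold.

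Further transporters gave 3 rises and 0 falls among 10 tested genes, which were Bsg, Slc2a8 (1.87-fold) and Slc2a13 (1.37-fold). Other glycolytic isoenzymes gave 0 rises and 3 falls among 6 tested genes. Hk3, the hexokinase of myeloid cells, fell 4.50-fold, Bpgm, the bisphosphoglycerate mutase of red cells, 2.13-fold, and Tigar, a fructose bisphosphatase, 2.06-fold. Beside the Bpgm fall, 3 of 9 tested primitive erythroid markers fell, among them Klf1 (2.74-fold), and their mean level was 2.65 to 2.87 in Arid3b-null and 3.18 to 3.49 in wild-type trunks. The part of erythroid cells in it was not tested.

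Genes of pyruvate entry gave 1 rise, Pcx (1.71-fold), and 2 falls, Mpc1 (1.41-fold) and Pdhx (1.43-fold), among 9. In gluconeogenesis, which runs glycolysis backwards, Pck2 (2.31-fold), Slc37a4 (1.71-fold) and G6pc3 (1.27-fold) rose, and Fbp1 fell 4.42-fold and cleared background on only 2 of the Arid3b-null arrays. The calls of 11 of the 26 genes named from these pathways, here and among the closing observations, were lost without at least 1 array, with adjusted p-values of 0.0513 to 0.152. With slide and replicate number as a block, G6pc3 (0.0774), Idh2 (0.0561) and Suclg2 (0.0570) did not pass. The genes lost without an array were Akr1b3, G6pc3, H6pd, Idh2, Mpc1, Ogdh, Pdhx, Rpia, Slc2a13, Slc37a4 and Suclg2. Of these, G6pc3, Idh2 and Suclg2 were lost whichever of the 6 arrays was left out.

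**Figure D4:**
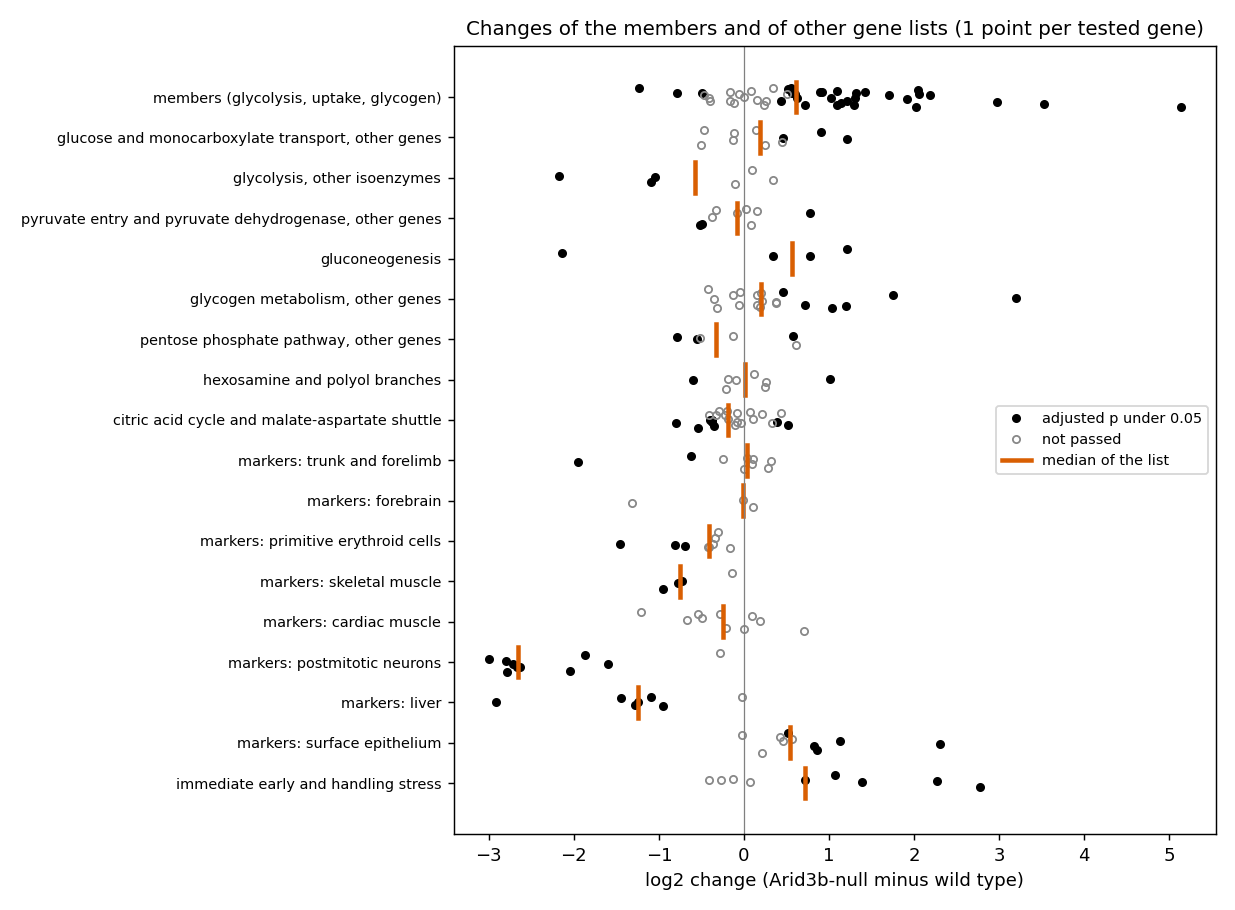
Log2 change (Arid3b-null minus wild type, x axis) of each tested gene of the 44 described genes, of the other carbohydrate pathways and of cell type marker lists, 1 row per list. Black points passed the test, open points did not, and the bar is the list median. The top row has its median at 0.61, and the row of postmitotic neuron markers has its median at -2.65.

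The letters upstream of the annotated starts were searched for the core of the hypoxia response element. The search took ACGTG or GCGTG on either strand in the 250 bases before each start in the RefSeq promoter table of build GRCm38.p6, and overlapping matches were counted separately. The windows of the 6 other genes below that rose are examples with matches, and do not show how matches are spread among genes that rose. Eno2 is shown because the gene with the largest change had 0 matches. Slc16a1 is shown beside Slc16a3 as a gene that did not pass but had 4. Gpi1, Tpi1, Gys1 and Gbe1 also rose and had 0 matches, and their windows are not printed. The printed windows were picked after the values were seen, and capitals mark the matches.
Eno2: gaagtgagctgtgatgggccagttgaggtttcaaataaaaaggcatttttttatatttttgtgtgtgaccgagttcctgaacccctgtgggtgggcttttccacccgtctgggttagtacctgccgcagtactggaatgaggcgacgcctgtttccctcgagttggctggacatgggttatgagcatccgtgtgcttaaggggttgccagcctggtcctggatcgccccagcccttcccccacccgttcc
Pfkp: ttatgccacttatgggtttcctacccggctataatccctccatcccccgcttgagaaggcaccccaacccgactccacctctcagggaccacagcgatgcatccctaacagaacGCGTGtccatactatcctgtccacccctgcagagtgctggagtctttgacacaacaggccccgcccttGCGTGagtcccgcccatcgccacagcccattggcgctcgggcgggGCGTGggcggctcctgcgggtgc
Aldoc: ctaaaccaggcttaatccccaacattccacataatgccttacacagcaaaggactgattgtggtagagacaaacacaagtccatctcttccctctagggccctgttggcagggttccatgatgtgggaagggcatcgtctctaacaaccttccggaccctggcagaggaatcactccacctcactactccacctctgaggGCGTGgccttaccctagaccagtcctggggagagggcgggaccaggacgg
Pgm1: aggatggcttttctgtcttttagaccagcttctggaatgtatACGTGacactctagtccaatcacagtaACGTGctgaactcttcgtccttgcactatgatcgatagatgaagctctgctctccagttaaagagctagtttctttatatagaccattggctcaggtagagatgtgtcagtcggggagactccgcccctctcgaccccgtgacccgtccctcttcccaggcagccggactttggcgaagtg
Pygl: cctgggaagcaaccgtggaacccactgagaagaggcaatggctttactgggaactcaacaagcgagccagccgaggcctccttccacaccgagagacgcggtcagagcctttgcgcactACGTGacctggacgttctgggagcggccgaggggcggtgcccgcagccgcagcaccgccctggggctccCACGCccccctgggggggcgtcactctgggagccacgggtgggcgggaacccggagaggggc
Pgk1: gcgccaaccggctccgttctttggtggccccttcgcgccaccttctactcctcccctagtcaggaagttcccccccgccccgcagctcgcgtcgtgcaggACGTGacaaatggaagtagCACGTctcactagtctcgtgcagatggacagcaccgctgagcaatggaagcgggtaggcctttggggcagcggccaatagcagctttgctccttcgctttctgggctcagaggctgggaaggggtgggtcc
Slc16a3: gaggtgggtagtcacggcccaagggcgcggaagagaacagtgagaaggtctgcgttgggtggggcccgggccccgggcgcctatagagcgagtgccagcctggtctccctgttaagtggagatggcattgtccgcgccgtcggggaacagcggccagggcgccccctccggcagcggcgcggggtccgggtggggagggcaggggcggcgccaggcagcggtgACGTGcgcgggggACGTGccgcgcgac
Slc16a1: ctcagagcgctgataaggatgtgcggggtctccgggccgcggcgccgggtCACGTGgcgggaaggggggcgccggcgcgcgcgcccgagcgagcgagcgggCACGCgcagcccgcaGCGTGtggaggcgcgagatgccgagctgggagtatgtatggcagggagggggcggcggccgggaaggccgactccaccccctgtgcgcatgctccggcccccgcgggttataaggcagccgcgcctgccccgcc
In the window of Eno2 at chr6:124769674-124769923 (minus strand) there were 0 matches, and in that of Pfkp at chr13:6648772-6649021 (minus strand) there were 3. Aldoc at chr11:78322823-78323072 (plus strand) had 1 match, Pgm1 at chr4:99929201-99929450 (plus strand) had 2, and Pygl at chr12:70227684-70227933 (minus strand) had 2. Pgk1 at chrX:106186850-106187099 (plus strand) had 2 matches and Slc16a3 at chr11:120948817-120949066 (plus strand) had 2, the nearer of them beginning 14 bases before the start. Slc16a1 at chr3:104638414-104638663 (plus strand) had 4 matches in 3 stretches.

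Of the 42 genes with an entry, 35 (83.3%) had a match before at least 1 annotated start, against 41.5% of all 27025 genes in the table. Counted per window, 45 of 65 (69.2%) had a match, against 38.6% of all 32851 windows. Among genes that rose the share was 21 of 26 (80.8%), and among genes that did not pass it was 13 of 14 (92.9%). Base composition was not matched between these gene sets, and 16 of the 42 genes had more than 1 start. A match is a run of letters, not a site shown to be bound. Slc2a3 and Gpd1 had no entry.

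**Figure D5:**
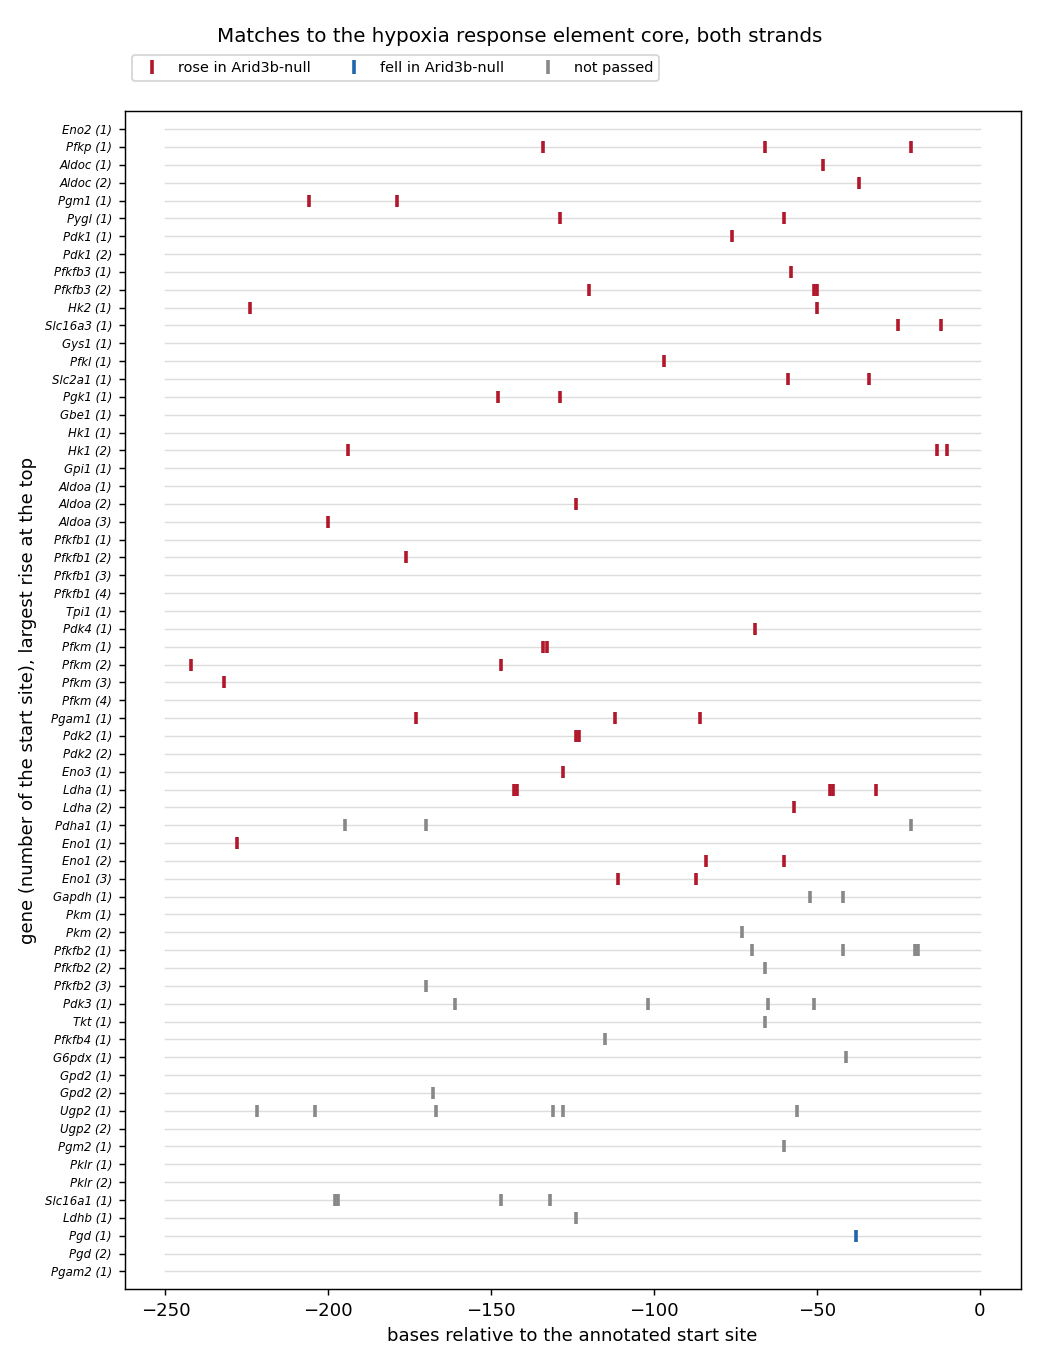
Matches to ACGTG or GCGTG on either strand (ticks) by distance in bases from the annotated start site (x axis), 1 row per start site, with the largest rise at the top. Tick colour gives the call of the gene in Arid3b-null against wild type. Matches occur in rows of genes that rose and of genes that did not pass, and the top row, Eno2, has 0.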

How the data were processed

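RNA of 6 pools (3 Arid3b-null, 3 wild type, 4 embryos each) was measured on one-colour arrays. Per the file headers, the deposited scanner files hold intensity values from Agilent Feature Extraction 10.7.3.1 (protocol GE1_107_Sep09, design 026655, build mm9), background-subtracted as the processed signal. The deposited value table holds log2 values for 24181 probes, with a median of 6.77 in each column and a correlation of 0.999 to 1.00 with the processed signal. How it was normalized is not stated by labels or headers, and it served as an alternative.

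Of 44397 spots 43020 were not controls and held 39429 probes. Accessions matched 26424 probes to 1 symbol of the RefSeq gene table of GRCm38.p6, used for names, and 13005 to none. Outlier-marked spots (100 to 169 per array) were left out, and 0 of the tested probes of the 44 genes were saturated. Each array was scaled by its 75th percentile of processed signal before taking log2. A probe entered the test where every array in 1 or both groups found it well above background, and the brightest probe represented its gene. Genes were tested with lmFit and eBayes (limma 3.58.1, R 4.3.3), two-sided, with Benjamini-Hochberg adjustment over 19792 genes and a threshold of 0.05. The procedure was tested on simulated data with independent noise on each array. That noise lacks the correlation between same-numbered arrays described below. The number of arrays limits the precision, and p-values measure the spread between pools, not embryos.

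Alternatives were other background corrections, scalings, filters, probe rules and the value table, slide or replicate number as a block, and each array left out. Slides and replicate numbers coincide. Deviations from the group means correlated at 0.163, 0.387 and 0.278 between same-numbered arrays and at -0.346 to 0.117 between the others (19772 genes). Whether this comes from the slide or from the collection of embryos cannot be told. The main fit has no block, and the fit with this block is given as an alternative.

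The 44 genes and all gene lists were chosen with earlier results of these data known. The text names Arid3b, the 44 genes and, of every other list, up to 4 genes that passed with the smallest adjusted p, or 2 where none passed. A list level is the mean log2 value on an array of the brightest probe of each listed gene with a probe, tested or not. Some of these names are left out of the text for brevity, and 2 genes of these lists are not reported here.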

Additional observations from a re-analysis of the deposited data

How the results depend on the processing

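Over the alternatives other than normexp with local background, the 44 genes gave 717 values, of which 653 kept direction and side of the threshold, 40 lost the call, 12 gained it and 12 changed sign. Normexp with local background gave 2 rises and 0 falls among all genes, 0 and 0 among the 44 genes and 0 and 0 among the other carbohydrate genes (limma), with 1018 and 887 genes at an unadjusted p under 0.05. There the median of the 44 genes was 0.82 and that of all genes -0.22, and signs turned for Pfkfb2 (-0.65), Pdk4 (-0.84), G6pdx (0.16), Slc2a13 (-0.33), Pck2 (-0.42), the forebrain marker Emx2 (-0.84) and the immediate early gene Fos (-0.65). With 34 spots of high background left out, an alternative chosen after seeing the data, that setting gave 2155 and 2106 calls among all genes and 27 and 4 among the 44. With no filter on dim probes, where more genes were tested, 1288 genes rose and 998 fell, 22 and 1 of the 44, and 10 and 7 of the other carbohydrate genes. In the deposited value table the median was 0.77 over the 40 genes it holds, without Aldoa, Pgam1, Eno1 and Pkm. Each array left out in turn gave 1660 to 2018 rises and 1208 to 2026 falls among all genes, 23 to 27 and 1 to 2 among the 44, 10 to 15 and 6 to 11 among the other carbohydrate genes, and a median of 0.57 to 0.66. The fewest calls came without wild type replicate 1. The replicate block, identical to the slide block, gave 2428 rises and 2348 falls among all genes, 26 and 2 among the 44, where Eno1 and Pgd lost their calls and no other call of the 44 changed, and 13 and 11 among the other carbohydrate genes. Values near 0 changed sign for Pfkfb4 (0.081 under normexp with the median background of each array, 0.074 with high-background spots left out, 0.00076 with median scaling) and G6pdx (0.0076 after quantile normalization, 0.0075 in the deposited table). They also did so with 1 array left out, where the log2 change ranged over -0.15 to 0.12 for Pfkfb4, -0.20 to 0.045 for G6pdx, -0.24 to 0.0034 for Gpd2, -0.064 to 0.33 for Emx2, -0.0098 to 0.30 for Pdk3 and -0.28 to 0.019 for Pgm2. Under normexp with the median background of each array, Pfkp rose 7.22-fold. With ACGTG alone, 45.2% of the 42 genes had a promoter match, against 18.5% of all genes. Causes of these changes were not tested.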

Other observations

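Genes of pathways that branch from glycolysis or follow it moved in both directions. Of 23 tested genes of the citric acid cycle and the malate-aspartate shuttle 2 rose and 6 fell, with a median log2 change of -0.19. Over all genes 13.6% rose and 12.9% fell, which is the background for this list and the lists below. Slc25a12, the mitochondrial carrier that exchanges aspartate for glutamate, fell 1.74-fold (limma adjusted p = 0.00608), and Ogdh, a subunit of the oxoglutarate dehydrogenase complex, fell 1.46-fold (limma adjusted p = 0.0181). Idh2, a mitochondrial isocitrate dehydrogenase, rose 1.31-fold and Suclg2, a succinate-CoA ligase subunit, rose 1.43-fold (limma adjusted p = 0.0269 and 0.0372). The calls of Idh2 and Suclg2, like that of G6pc3 above, were lost whichever of the 6 arrays was left out.

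Of 6 further pentose phosphate genes 1 rose and 2 fell. Taldo1, the transaldolase, fell 1.73-fold and Rpia, which isomerises ribose phosphate, fell 1.47-fold, while H6pd, the dehydrogenase of the endoplasmic reticulum, rose 1.49-fold. Of 8 genes of the hexosamine and polyol branches, Khk, the fructose-phosphorylating ketohexokinase, rose 2.02-fold (limma adjusted p = 0.00145) and Akr1b3, the aldose reductase, fell 1.51-fold (limma adjusted p = 0.0146).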
